A study of Gallus gallus with 9 samples.

Results

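The Notch genes described here are 8 genes of one signalling pathway: the ligands DLL1, JAG1 and JAG2, the receptors NOTCH1 and NOTCH2, the receptor-modifying glycosyltransferase LFNG, and the target genes HES5 and HEY1. They were taken by name from the platform annotation, which assigned 24 probe sets to them, and they stood among 13009 genes measured in all. RNA came from untreated, normal chicken embryos (Gallus gallus, genotype given as unknown) of Hamburger Hamilton stage 18, incubated at 38 degrees C. The 3 groups were the frontonasal mass, cut from between the nasal pits, and the jaw-forming mandibular and maxillary prominences, each with 3 pools of 26 to 32 dissected pieces, and each pool was hybridised to 1 Affymetrix chicken array. Every pool held mesenchyme together with its epithelium, so fewer cells of a type and less RNA per cell cannot be told apart in any value below.

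Notch signalling passes between touching cells. A ligand of the Delta or Jagged family on one cell binds a Notch receptor on its neighbour, the receptor is cut by ADAM proteases and then by gamma-secretase, and the freed intracellular part enters the nucleus and acts with RBPJ and Mastermind proteins on target genes. Among these are the HES and HEY genes, which encode basic helix-loop-helix repressors. Fringe enzymes such as LFNG add a sugar to the receptor and change which ligands it responds to. In neural and placodal tissue the pathway is known for lateral inhibition, in which DLL1-expressing neuronal precursors keep their neighbours as progenitors through HES5. In the zebrafish face, Jagged and Notch signalling is known for patterning the dorsal part of the arch skeleton.

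The arrays had deposited median signals of 34.3 to 37.3 intensity units, and 49.2% to 53.3% of 38439 tested probe sets exceeded background, which was 31.6 to 37.1 per array. With 3 arrays per group, precision is limited by their number. Of 8 prominence markers, 4 were higher and 3 lower in mandibular than in frontonasal pools, and 1 was higher and 3 lower in maxillary pools. LHX8, a LIM homeobox gene of jaw mesenchyme, had mean signals of 1002, 1816 and 18.6 in mandibular, maxillary and frontonasal pools, and SP8, a zinc finger gene of the frontonasal region, had 24, 45.8 and 645. All 10 mesenchyme markers and all 10 measured surface epithelium markers were above background on at least 3 arrays. Frontonasal pool 2 stood apart. The summed signal of 20 visceral organ markers was 7578 there against 2129 and 2460 in frontonasal pools 1 and 3 and 1992 to 2364 in the 6 other arrays, with the liver gene FGB at 2292 against 49.5 and 50.6 in the other frontonasal pools. The GAPDH 3' to 5' signal ratio, a sign of RNA integrity, was 1.51, 1.27 and 1.38 in frontonasal pools 1, 2 and 3 and 1.19 to 1.29 in the others. The same ratio for actin was 2.41, 1.88 and 1.96 against 1.99 to 2.46, and for EF1A 1.61, 1.42 and 1.35 against 1.21 to 1.44. Both overlapped between the frontonasal and the other pools. The GAPDH ratio overlapped through frontonasal pool 2 only, and frontonasal pools 1 and 3 lay above the others. The part of RNA integrity in the differences was not tested. Pool 2 also stood apart in arch markers, with BARX1 at 1214 against 362 and 373 and HAND2 at 50 against 5.15 and 3.09 in frontonasal pools 1 and 3. Calls for Notch genes, and the counts of the lists set beside them, are therefore also given without that pool.

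Of the 24 probe sets, 13 were above background on at least 3 arrays, 8 on none and 3 on 1 or 2. The 13 held both probe sets of DLL1, LFNG and HES5, 3 of 6 for NOTCH2, 2 of 3 for JAG2, 1 of 5 for NOTCH1 and the single one of HEY1, whereas none of the 3 JAG1 probe sets reached it. Differences are log2(signal + 16), given with standard errors from limma, and a call is a Benjamini-Hochberg adjusted p under 0.05 over all tested probe sets. Between mandibular and frontonasal pools 2 of the 24 probe sets were called, both lower in the mandibular prominence, where 1.35% of all tested probe sets were called lower. Between maxillary and frontonasal pools 3 were called, all lower in the maxillary prominence, against 1.34% of all probe sets. Between mandibular and maxillary pools limma called 0 of the 24, against 0.263% of all probe sets. In the F test across the 3 prominences 3 were called, against 2.64% of all. Both comparisons with the frontonasal mass share its 3 arrays.

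**Figure D1:**
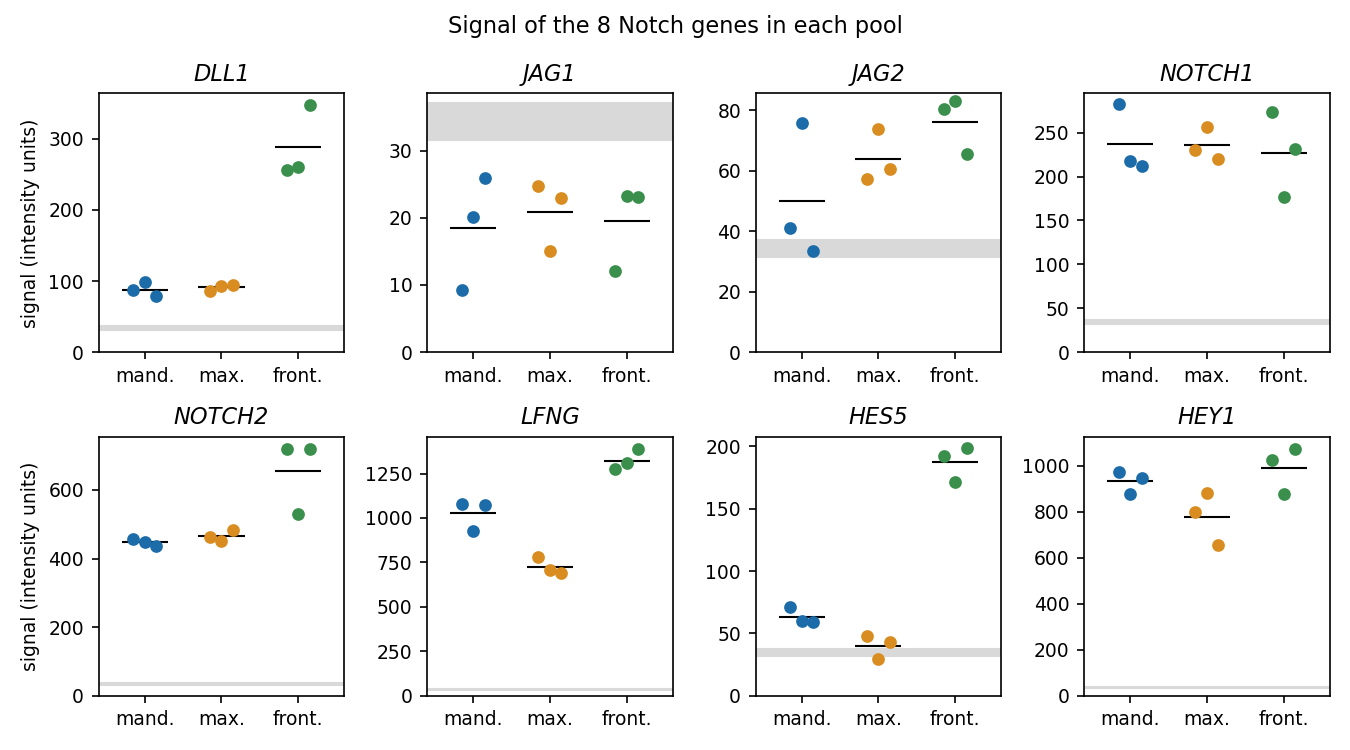
Signal in intensity units of the brightest probe set of each gene in the 9 pools; points are pools 1, 2 and 3 from left to right, lines are means of 3 pools and the grey band is the range of array backgrounds (31.6 to 37.1). DLL1 and HES5 sat higher in all 3 frontonasal pools than in any other pool, LFNG formed 3 separate levels, and JAG1 lay under the band throughout.

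DLL1 (NCBI gene 395820), the Delta-type ligand of neuronal precursors, was about 3 times as high in the frontonasal mass as in either jaw prominence. Its brighter probe set read 256, 260 and 348 in the frontonasal pools, 87, 98.4 and 78.9 in the mandibular pools and 86.1, 92.9 and 94.9 in the maxillary pools. All frontonasal pools were above all others without overlap, and the jaw prominences overlapped each other. The ratio of mean signals was 3.27 over the mandibular and 3.16 over the maxillary pools. The log2 difference was -1.54 ± 0.13 (limma adjusted p = 6e-04) for mandibular minus frontonasal and -1.49 ± 0.13 (adjusted p = 0.00083) for maxillary minus frontonasal, n = 3 per group. Without frontonasal pool 2 these were -1.60 and -1.55 (adjusted p = 0.00135 and 0.00219). Mandibular minus maxillary was -0.05, with a 95% interval of -0.34 to 0.25. The dimmer DLL1 probe set read 32.7 to 52.4 on the 9 arrays, close to background, and was not called (-0.16 ± 0.13 and -0.21 ± 0.13, adjusted p = 0.692 and 0.558).

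JAG2 (NCBI gene 776138), a Jagged ligand, was measured weakly. Its brightest probe set read 80.2, 82.9 and 65.4 in frontonasal pools, 57.1, 73.6 and 60.4 in maxillary pools, and 41, 75.6 and 33.3 in mandibular pools, where pool 2 lay with the frontonasal values and the others near background. The mandibular minus frontonasal difference of -0.53 ± 0.21 was not called (interval -1.02 to -0.04, limma adjusted p = 0.325). Of 18 alternative fits, 1 called it, the fit without mandibular pool 2, whose value lay nearest the frontonasal ones (-0.79, limma adjusted p = 0.0441). The other 17 did not call it, with an adjusted p of up to 0.603. A second JAG2 probe set was above background on 3 of 9 arrays, with 44.6, 5.26 and 41.3 in frontonasal, 7.58, 36.2 and 7.39 in mandibular and 3.98 to 5.36 in maxillary pools, and was not called (-0.45 ± 0.43 and -1.02 ± 0.43 against the frontonasal mass, adjusted p = 0.737 and 0.336). The remaining one was above background on 2 arrays and differed by 0.08 ± 0.37 and -0.26 ± 0.37. JAG1 (NCBI gene 396043), the other Jagged ligand, stayed below background throughout with all 3 probe sets, and its brightest one read 9.25 to 25.9, so no fold is given and its fitted differences carry no direction.

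Both receptors were measured, and neither was called in any comparison. NOTCH2 (NCBI gene 374031) read 720, 529 and 719 in the frontonasal pools against 458, 449 and 436 in the mandibular and 463, 451 and 482 in the maxillary pools. The frontonasal pools did not overlap the others, and pool 2 was the lowest of them. The mandibular minus frontonasal difference was -0.52 ± 0.12 and the maxillary minus frontonasal difference -0.47 ± 0.12, neither of them called (limma adjusted p = 0.0708 and 0.107). Without frontonasal pool 2, the pool with visceral transcripts, the values were -0.67 and -0.61 and both were called (adjusted p = 0.00598 and 0.00977). Of 18 alternative fits of each comparison, this one included, 4 and 1 called the difference. The other 14 and 17 did not, with limma adjusted p up to 0.194 and 0.276. A second NOTCH2 probe set above background on all arrays differed by -0.30 ± 0.16 and -0.29 ± 0.16 (adjusted p = 0.476 and 0.496), and one near background by 0.01 ± 0.23 and 0.05 ± 0.23. Another, above background on 2 arrays, read 53.3, 11.7 and 40.9 in frontonasal pools. It differed by -0.29 ± 0.33 and -0.65 ± 0.33 and was not called. A further one, above background on 1 array, differed by 0.06 ± 0.42 and -0.11 ± 0.42. The last was below background on every array.

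NOTCH1 (NCBI gene 395655) read 274, 177 and 231 in frontonasal, 282, 218 and 212 in mandibular and 230, 256 and 220 in maxillary pools. All 3 groups overlapped. Its differences were 0.07 ± 0.16 in both comparisons with the frontonasal mass and 0.00 ± 0.16 between the jaw prominences, with an interval for mandibular minus frontonasal of -0.30 to 0.44. The other 4 NOTCH1 probe sets were below background on every array.

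**Figure D2:**
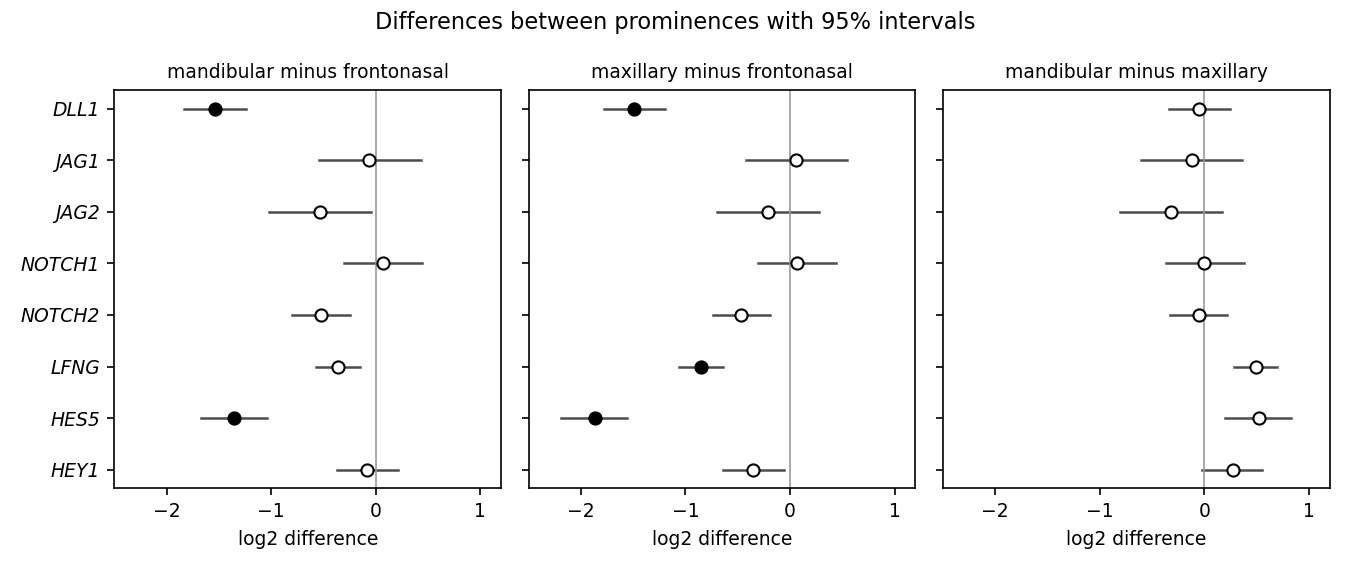
Log2 differences of the brightest probe set of each gene (points) with 95% intervals (lines) for the 3 pairwise comparisons of prominences, 3 pools each; filled points are called at an adjusted p under 0.05. DLL1 and HES5 were called in both comparisons with the frontonasal mass, LFNG in the maxillary one (-0.85), and no point was called between mandibular and maxillary pools. JAG1 is drawn although it was below background on all 9 arrays.

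LFNG (NCBI gene 395790), the Fringe glycosyltransferase, had a graded pattern with the maxillary prominence lowest. Its brighter probe set read 1273, 1308 and 1388 in frontonasal pools, 1081, 928 and 1072 in mandibular pools and 782, 706 and 691 in maxillary pools. None of the 3 groups overlapped. The maxillary minus frontonasal difference was -0.85 ± 0.09 (limma adjusted p = 0.00252), and -0.86 without frontonasal pool 2 (adjusted p = 0.00793). The ratio of mean signals was 1.82 in favour of the frontonasal mass. The mandibular level in between was not called different from either neighbour, at -0.36 ± 0.09 against the frontonasal mass (interval -0.57 to -0.15, adjusted p = 0.0995) and 0.49 ± 0.09 against the maxillary prominence (interval 0.28 to 0.70, adjusted p = 0.115). With quantile normalization both were called (adjusted p = 0.0364 and 0.0392), and the first of them also on unscaled values (0.0418) and with a pseudocount of 64 (0.0452). In the other 15 and 17 of 18 alternative fits they were not called, with limma adjusted p up to 0.268 and 0.361. Those include all 9 fits without 1 array. The dimmer LFNG probe set read 32.9 to 52.4 and differed by 0.23 ± 0.14 and 0.09 ± 0.14 in the comparisons with the frontonasal mass, in the opposite direction and not called (adjusted p = 0.547 and 0.86).

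HES5 (NCBI gene 419392), the Notch target of neural progenitors, was about 3 times as high in the frontonasal mass as in the mandibular prominence, and its maxillary level was close to background. The brighter probe set read 192, 171 and 199 in frontonasal pools, 71.5, 59.8 and 59.1 in mandibular pools and 47.5, 29.2 and 43.3 in maxillary pools. No groups overlapped, and maxillary pool 2 lay below its background. Mandibular minus frontonasal was -1.36 ± 0.14 (limma adjusted p = 0.00156) and maxillary minus frontonasal -1.87 ± 0.14 (adjusted p = 0.00041), which are ratios of mean signals of 2.95 and 4.68 in favour of the frontonasal mass. Without frontonasal pool 2 they were -1.42 and -1.93 (adjusted p = 0.00351 and 0.00126). The mandibular level was above the maxillary one by 0.52 ± 0.14 (interval 0.20 to 0.83), which was not called over all probe sets (adjusted p = 0.311). A second HES5 probe set, of the type whose probes can match transcripts of more than 1 gene, read 30.9 to 67.1 and differed by -0.16 ± 0.16 and -0.47 ± 0.16 (adjusted p = 0.745 and 0.211). Chicken HES5 is known to have close paralogs, so the assignment of signal between copies is uncertain.

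HEY1 (NCBI gene 428365), the other target, read 1024, 877 and 1074 in frontonasal, 975, 877 and 948 in mandibular and 800, 882 and 654 in maxillary pools. The groups overlapped. Mandibular minus frontonasal was -0.08 ± 0.13 (interval -0.37 to 0.21) and maxillary minus frontonasal -0.35 ± 0.13 (interval -0.64 to -0.06), not called (limma adjusted p = 0.854 and 0.259). Its order of means, 992 in frontonasal, 933 in mandibular and 779 in maxillary pools, was that of LFNG and HES5, but no difference between prominences was called.

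With 1 probe set per gene, 4 of the 8 genes had no overlap between mandibular and frontonasal pools and 4 none between maxillary and frontonasal pools. These were DLL1, NOTCH2, LFNG and HES5 in both, each higher in the frontonasal mass. Among all 13009 genes, 11.0% and 11.4% were lower without overlap in the same comparisons. Between mandibular and maxillary pools LFNG and HES5 were higher without overlap, where 9.42% of all genes were. The median difference of the 8 genes was -0.44 for mandibular minus frontonasal, -0.41 for maxillary minus frontonasal and -0.02 for mandibular minus maxillary, beside 0.00, -0.01 and 0.01 over all genes. Leaving out JAG1, which was below background, the medians of the other 7 were -0.52, -0.47 and 0.00. The 8 genes were chosen with earlier results of these data known, so these counts and medians are a description and carry no test.

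**Figure D3:**
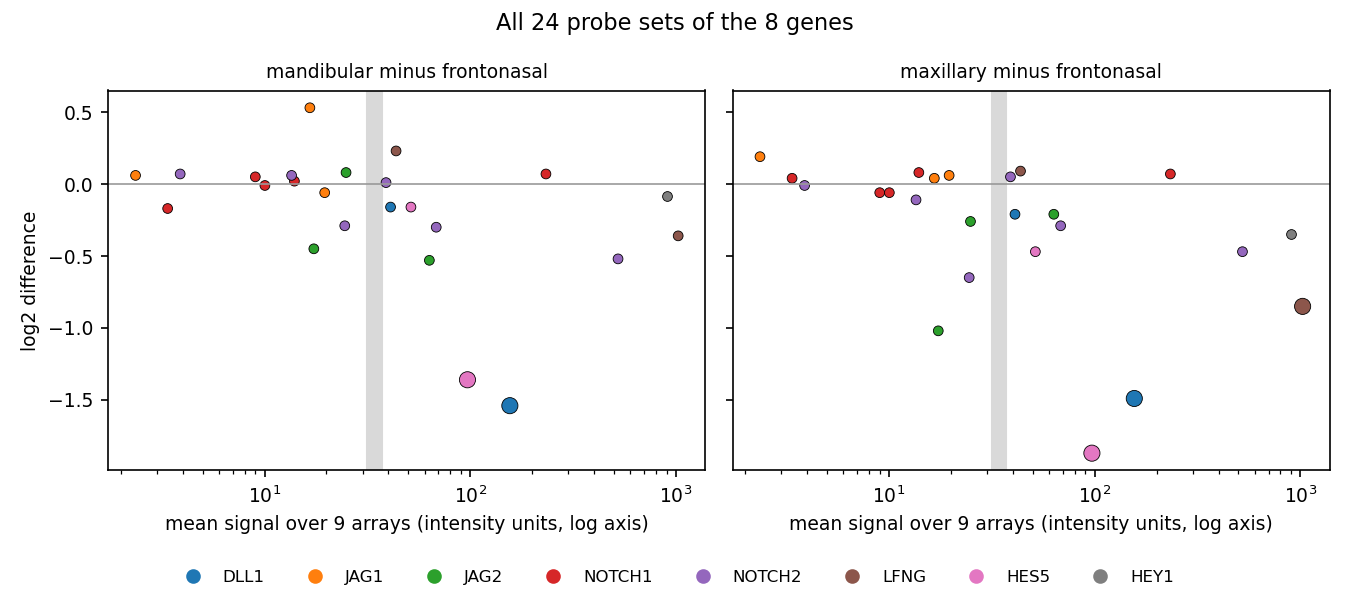
Log2 difference against mean signal over 9 arrays (log axis) for all 24 probe sets of the 8 genes; large points are called and the grey band is the range of array backgrounds. The called probe sets of DLL1, HES5 and LFNG lie to the right of the band, while the dimmer probe set of each of these genes lies near it and differed by less than 0.5 in either direction.

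The rest of the pathway was followed through 50 further genes, grouped by role, of which 41 were measured and 34 were above background on at least 3 arrays. With 1 probe set per gene, 1 of the 41 was higher and 1 lower in mandibular than in frontonasal pools, where 1.83% and 2.31% of all genes were. Between maxillary and frontonasal pools 0 were higher and 1 was lower, where 1.31% and 2.21% of all genes were. Between mandibular and maxillary pools limma called 0 of the 41, beside 0.454% of all genes. With frontonasal pool 2 left out, limma called 0 of the 41 in each of the 3 comparisons. The medians of the 41 were -0.01, 0.01 and -0.01 in these comparisons.

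NEURL1, the chicken counterpart of Neuralized, a ubiquitin ligase that drives endocytosis of Delta ligands, was the gene that was lower in both comparisons with the frontonasal mass. Its brightest probe set, of the type that can match several genes, read 46.3, 57.4 and 57.5 in frontonasal, 33.6, 27 and 31.3 in mandibular and 36, 26 and 26.2 in maxillary pools. The jaw values were thus close to background. The differences were -0.58 ± 0.12 and -0.62 ± 0.12 (limma adjusted p = 0.041 and 0.0341), and without frontonasal pool 2 they were -0.54 and -0.58, no longer called (0.1 and 0.0896). A second NEURL1 probe set, of the same type, had means of 31.6, 31.7 and 34.5 in mandibular, maxillary and frontonasal pools. It was above background on 4 arrays, differed by -0.09 ± 0.17 and -0.07 ± 0.17 and was not called (limma adjusted p = 0.897 and 0.918). The remaining one was below background on every array. TLE4, a Groucho corepressor bound by HES proteins, was the gene that was higher in the mandibular pools, with 544, 516 and 545 against 398, 382 and 404 in the frontonasal and 470, 466 and 415 in the maxillary pools. The mandibular minus frontonasal difference was 0.42 ± 0.08 (adjusted p = 0.03), and 0.40 without frontonasal pool 2, which was not called (0.0739). A second TLE4 probe set, above background on all 9 arrays, had means of 215, 192 and 160 in mandibular, maxillary and frontonasal pools. Its mandibular minus frontonasal difference was 0.40 ± 0.09 without overlap, and was not called (limma adjusted p = 0.0609). For each call of the brightest NEURL1 and TLE4 probe sets, leaving out 1 array ended it in 7 of 9 fits, with the highest adjusted p of 0.145 and 0.128 for NEURL1 and 0.109 for TLE4. A fit with the replicate number as a block also ended each of these calls.

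DNER, which encodes a Delta-like protein of neurons with EGF repeats, was not called with its brightest probe set but was called with its other probe sets, and is described after its values were seen. The brightest one, of the type that can match several genes, had means of 92.2, 93.7 and 90.9 in mandibular, maxillary and frontonasal pools. A second read 229, 136 and 226 in frontonasal pools against 42.7, 30.5 and 33.3 in mandibular and 42.8, 27.1 and 32.6 in maxillary pools. Its differences were -2.02 ± 0.20 and -2.06 ± 0.20 (limma adjusted p = 0.00152 and 0.00154), and they stayed called in all 18 alternative fits of each comparison. Without frontonasal pool 2 they were -2.25 and -2.29 (adjusted p = 0.000433 and 0.000689). The remaining, dimmer DNER probe set differed by -1.02 ± 0.14 and -1.03 ± 0.14 (adjusted p = 0.00808 and 0.00826; -1.18 and -1.20 without frontonasal pool 2, 0.00145 and 0.00202), with mandibular and maxillary signals below background on every array, and its frontonasal signal, above background on 2 of 3 arrays, was higher than the mandibular one by at least 1.23-fold and than the maxillary one by at least 1.17-fold.

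Other ligands were not called. DLL4, the Delta ligand of vessel tips, read 35.4, 34.6 and 28.8 in mandibular pools, 53.8, 55.8 and 71.1 in maxillary pools and 77.4, 53.2 and 42.8 in frontonasal pools. The mandibular pools were lowest without overlap, but the differences of -0.57 ± 0.17 from the frontonasal mass and -0.64 ± 0.17 from the maxillary prominence did not pass (limma adjusted p = 0.165 and 0.312). DLK1, a non-canonical ligand, was below background in all frontonasal pools and was above it on 2 mandibular arrays and 1 maxillary array (0.78 ± 0.25 and 0.84 ± 0.25, adjusted p = 0.197 and 0.164).

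Apart from LFNG, no measured enzyme of receptor glycosylation or cleavage was called. All 6 cleavage genes, among them the receptor protease ADAM10 and the gamma-secretase subunits PSEN2, NCSTN and APH1A, were above background and had a median difference of -0.06 for mandibular minus frontonasal and -0.03 for maxillary minus frontonasal. The Fringe paralog RFNG had means of 915 in mandibular, 835 in maxillary and 866 in frontonasal pools, with differences from the frontonasal mass of 0.08 and -0.05 (limma adjusted p = 0.803 and 0.884). MFNG was below background on all arrays. POFUT1, the fucosyltransferase on whose product Fringe acts, differed by 0.07 and 0.02.

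In the nuclear complex 12 of 13 measured genes did not pass between mandibular and frontonasal pools and 13 of 13 between maxillary and frontonasal pools. RBPJ, the DNA-binding partner of the receptor, had means of 157, 165 and 143 in mandibular, maxillary and frontonasal pools, with differences of 0.11 ± 0.14 and 0.19 ± 0.14. Among the other targets, HES4 read 203, 149 and 234 in frontonasal, 142, 174 and 123 in mandibular and 134, 126 and 101 in maxillary pools. Its maxillary minus frontonasal difference of -0.62 ± 0.18 had no overlap but was not called (limma adjusted p = 0.158). HEY2 differed by -0.10 and -0.07, and HES6 and the feedback gene NRARP were below background on all arrays. FABP7, also listed as a target, ran the other way, with means of 972 in mandibular, 1045 in maxillary and 852 in frontonasal pools. Its differences from the frontonasal mass, 0.19 ± 0.12 and 0.28 ± 0.12, were not called (limma adjusted p = 0.558 and 0.325). HES1 and HEYL had no probe set annotated to them.

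**Figure D4:**
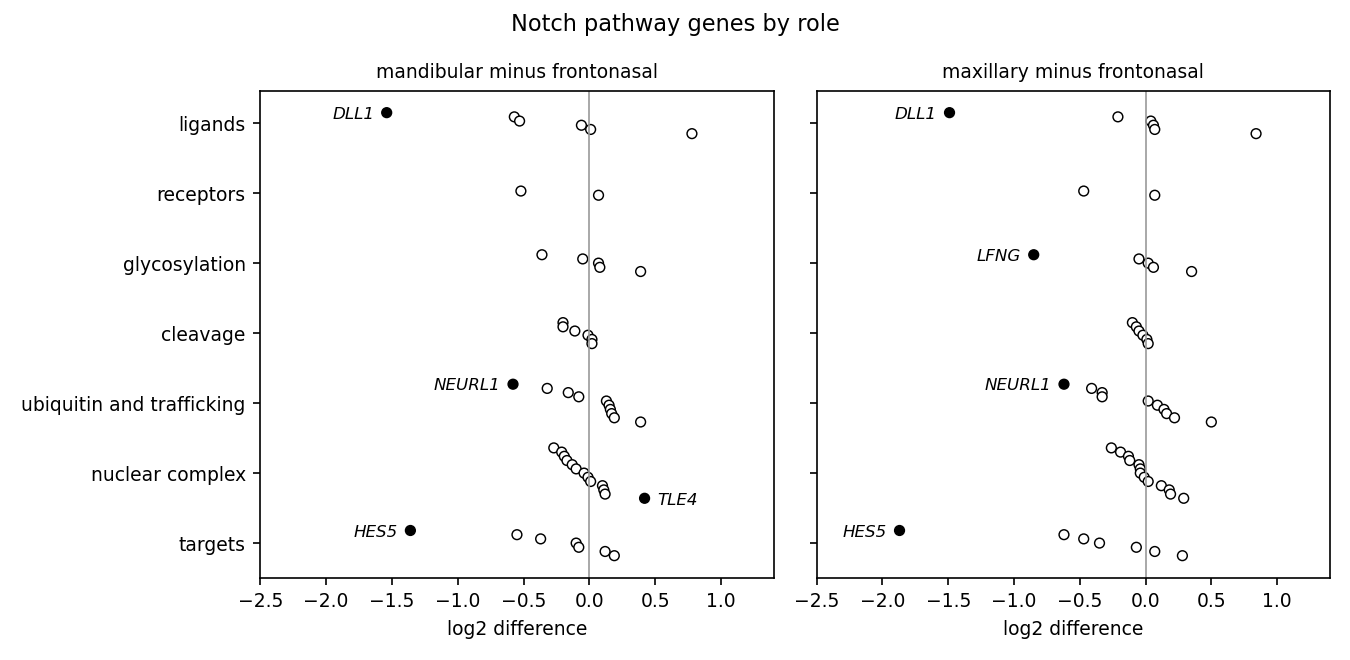
Log2 differences of 49 measured Notch pathway genes (the 8 genes and 41 others, 1 probe set each) by role, for both comparisons with the frontonasal mass; filled points are called and named. Calls were DLL1, HES5, NEURL1 and TLE4 for the mandibular and DLL1, LFNG, NEURL1 and HES5 for the maxillary comparison, and the cleavage genes lie close to 0.

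Markers of other cell types moved in part with these genes. Of 14 measured neural progenitor and forebrain markers, 7 were lower in mandibular and 6 in maxillary than in frontonasal pools, and their summed signal was 2778 to 3479 in frontonasal pools against 1794 to 1937 in mandibular and 1730 to 2094 in maxillary pools. Like this sum, DLL1 and HES5 were highest in the frontonasal pools. The sum overlapped between the jaw prominences, as DLL1 did, whereas HES5 was higher in all mandibular than in all maxillary pools. The counts of lower markers were also 7 and 6 without frontonasal pool 2. FABP7, the brightest gene of the list, ran the other way, with means of 852 in frontonasal, 972 in mandibular and 1045 in maxillary pools. SOX2, EMX2 and RFX4 also had their lowest means in frontonasal pools, and OTX2 and LHX2 had their highest in mandibular pools. SOX3, a SOXB1 gene of neural and placodal progenitors, read 257, 189 and 352 in frontonasal pools and 9.26 to 37 elsewhere. The pan-neural SOX2 was below background in all frontonasal pools, SOX1 was above it in 1 of them, and RFX4 was below it on all arrays. The proneural genes NEUROG1 and NEUROG2, which activate DLL1 in neuronal precursors, had frontonasal means of 29.5 ± 9.12 and 29.6 ± 5.61 (SD, n = 3), above background on 1 array and on none, and means of 2.01 to 4.57 in the jaw prominences, below background. Their fitted differences were called nonetheless, at -1.13 and -1.15 for NEUROG1 and -1.19 and -1.34 for NEUROG2 (limma adjusted p = 0.00347, 0.00347, 0.00262 and 0.00161). Without frontonasal pool 2 they were -0.97, -0.99, -1.20 and -1.34, also called. Of 14 measured neuron and proneural markers 3 were lower in mandibular and 5 in maxillary than in frontonasal pools, NEUROG2, NEUROD1 and NEUROD4 were below background on all arrays, and the list had a summed signal of 1283 to 1733 in frontonasal, 1623 to 1762 in mandibular and 942 to 961 in maxillary pools, an order that differs from that of DLL1. With frontonasal pool 2 left out, 4 were lower and 2 higher in mandibular and 5 lower and 1 higher in maxillary pools. In that sum ISL1, STMN2, DCX and NEFM were among the brighter genes and had their highest means in mandibular pools. ISL1 read 363 in frontonasal pool 2 against 47.6 and 45 in pools 1 and 3. NHLH2, also listed, was highest in the frontonasal mass like DLL1, with means of 308, 21 and 35.8 in frontonasal, mandibular and maxillary pools. Its mandibular signals were below background. Its differences were -3.13 and -2.62 (limma adjusted p = 0.000262 and 0.000645). The part of neural or placodal cells in the DLL1, HES5 and DNER differences was not tested.

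LFNG and HES5 had the same order of prominences as the summed signal of the surface epithelium markers. That sum over 10 genes was 8363 to 9701 in frontonasal, 7030 to 7403 in mandibular and 5848 to 6738 in maxillary pools, without overlap. EPCAM and CLDN1 were its brightest genes. Of these genes 4 were lower and 1 higher in maxillary than in frontonasal pools, and 2 were lower and 1 higher in mandibular pools. These counts were 4 and 1, and 1 and 1, without frontonasal pool 2. EPCAM, an epithelial adhesion molecule, had means of 3569 ± 199 in frontonasal, 2994 ± 88.7 in mandibular and 2555 ± 106 in maxillary pools (SD, n = 3), whereas the basal keratin KRT14 ran the other way with 312 ± 43.3, 606 ± 16.1 and 524 ± 89.5. TP63, KRT5 and GRHL3 also lacked the order of the sum. Their means were 322, 60.7 and 93.9 in frontonasal, 303, 33.2 and 110 in mandibular and 320, 73.3 and 82.6 in maxillary pools. The other measured markers of the list had that order of means. The part of the epithelial share in the LFNG and HES5 differences was not tested. Endothelial markers, whose cells use DLL4, JAG1 and NOTCH1, summed to 2148 to 2887 in frontonasal, 3872 to 4058 in mandibular and 3297 to 3998 in maxillary pools. Of 16 measured, 5 were higher and 0 lower in mandibular and 3 higher and 0 lower in maxillary than in frontonasal pools. Without frontonasal pool 2, 8 and 6 were higher and 0 lower. CDH5 and FLI1 were the brightest genes of that list. ESAM and ENG ran the other way and were not called. Their means were 252 and 53.8 in frontonasal, 172 and 41.2 in mandibular and 240 and 32.5 in maxillary pools. DLL4 and NOTCH1 were not called, and JAG1 was below background on all arrays. DLL4 had means of 32.9 in mandibular, 60.3 in maxillary and 57.8 in frontonasal pools. The part of endothelial cells in these values was not tested.

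**Figure D5:**
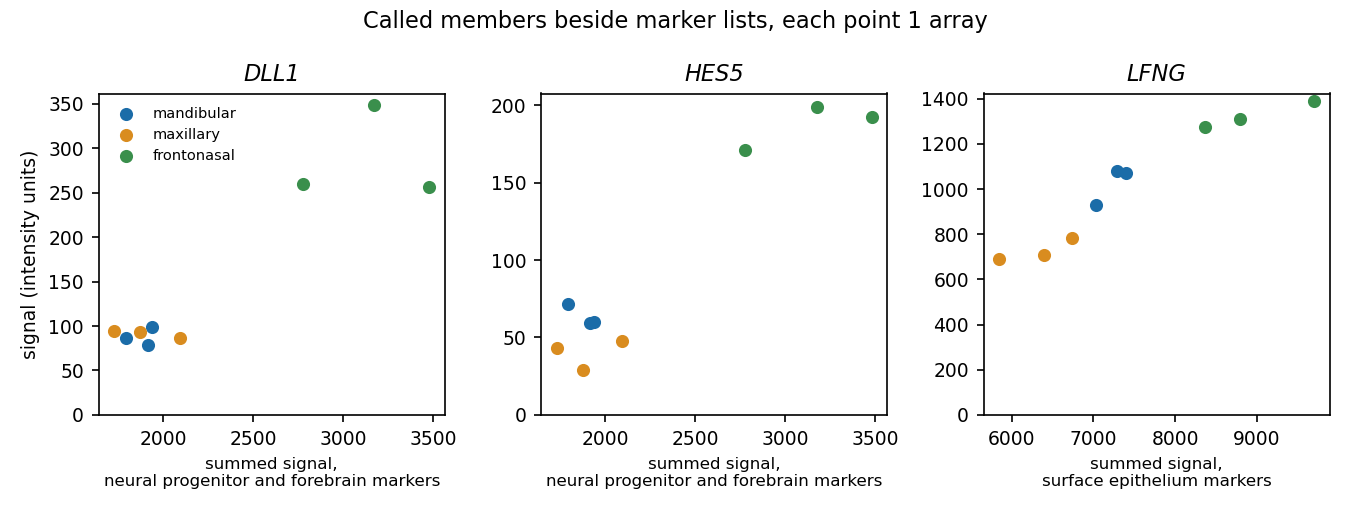
Signal of DLL1, HES5 and LFNG in intensity units (vertical) against the summed signal of a marker list (horizontal), 1 point per array. DLL1 and HES5 are drawn against the neural progenitor and forebrain list. LFNG is drawn against the surface epithelium list, whose order of prominences HES5 also had. Frontonasal pools are apart on both axes for DLL1 and HES5, and for LFNG the 3 prominences form a series from maxillary (691 to 782) through mandibular (928 to 1081) to frontonasal (1273 to 1388).

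Genes with the most similar profiles were found for the 3 called members by Pearson correlation of log2 values over the 9 arrays, among 10101 other genes above background on at least 3 arrays. The arrays fall into their prominences, so these values describe the difference between prominences and carry no test. For DLL1 they were PAX7 (r = 0.994), a paired box gene of the neural crest, MYO3AL (0.990) and SPON2 (0.989). PAX7 had a mean of 79.4 ± 24.1 (SD, n = 3) in frontonasal pools, and in the jaw prominences it was 3.24 and 3.27, below background. SPON2 likewise had means of 51.5 ± 7.45 in frontonasal pools and 12.2 and 14.1 in the mandibular and maxillary pools, below background. For HES5 they were BRINP1 (0.991), a gene of the nervous system, ITGA2 (0.989), an integrin subunit, and PRSS23 (0.986), and for LFNG the tetraspanin CD82 (0.988), EPCAM (0.980) and FAM84B (0.979). BRINP1 had means of 123 ± 4.07 in frontonasal, 63.9 ± 3.8 in mandibular and 49.6 ± 3.41 in maxillary pools, the order seen for HES5.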

How the data were processed

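Biotinylated cRNA was made from 500 ng of total RNA by the 2-cycle Affymetrix procedure, per the labels' protocols. The authors deposited linear probe set intensity for 38535 probe sets on 9 arrays, with a mean of 150.03 in each column once the top and bottom 2% of values are set aside. No source used here names the summarising software. From these, 96 control probe sets were dropped, arrays were scaled to a common median (factors 0.961 to 1.04), and background was set per array as the 95th percentile of 598 viral and reporter probe sets. Limma 3.58.1 (R 4.3.3) fitted 3 group means to log2(signal + 16) with 6 residual degrees of freedom. The pseudocount of 16 understates differences of dim genes. Intervals are at 95% and are not adjusted for the number of tests.

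Symbols came from the platform annotation (27168 probe sets with 1 gene, 177 with several, 11094 with none), updated by gene identifier through the GRCg7b gene table (26853 matched, all 8 Notch genes among them). A gene was represented by its brightest probe set except where others are named. Named genes were all probe sets of the 8 genes, listed pathway genes that were called or whose role is described, and the 3 most similar genes per called member. Members and lists were chosen with earlier results of these data known. The labels call the pools biological replicates, so p-values reflect how far separate pools of tissue vary. Deviations of same-numbered mandibular and maxillary pools from their group means correlated at 0.12 to 0.16, over 0.1 in 3 of 3 pairs. A fit with the replicate number as a block was therefore also read, for that comparison and for those with the frontonasal mass. The pairing comes from these values, since the labels give only the numbers. No batches are given. The fit was tested on simulated data with independent noise of equal spread in all groups. That simulation did not cover paired pools or a pool that stands apart.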

Additional observations from a re-analysis of the deposited data

How the results depend on the processing

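Alternatives were pseudocounts of 1 and 64, unscaled values, quantile normalization, 2 filters on dim probe sets, a replicate block, trended robust moderation, fits to the 6 arrays of a pair and fits without each array. The counts of called Notch probe sets stayed within 2 to 3 (mandibular minus frontonasal) and 3 to 4 (maxillary minus frontonasal, and across 3 prominences) when 1 array was left out, and at 0 to 0 between mandibular and maxillary pools. Quantile normalization gave 1 there, LFNG. The replicate block gave 2, 3 and 0 for the 3 pairwise comparisons and 3 for the F test, and ended the NEURL1 (0.0907 and 0.08) and TLE4 (0.0703) calls. In both comparisons with the frontonasal mass the numbers were not taken as pairing, since deviations of same-numbered pools from their group means correlated at 0.06 to 0.20 (mandibular) and 0.03 to 0.07 (maxillary), with 2 and 0 of 3 over 0.1. As a hint from the data, every pool correlated best with its own number, since no pair of different numbers exceeded 0.01. The cut of 0.1 was a choice, so pairing with the frontonasal pools stays undecided. The block results are therefore to be read beside the main ones. For mandibular and maxillary pools the block changed no call. DLL1 and HES5 kept both calls and LFNG its maxillary one in all 18 alternatives of each comparison, with log2 differences of -1.69 to -1.20 and -1.63 to -1.17 for DLL1, -1.55 to -0.98 and -2.23 to -1.28 for HES5 and -0.90 to -0.81 for LFNG. Both DNER calls of the probe set named were also kept in all 18. NOTCH2 in mandibular minus frontonasal was called with both dim filters (0.0459 and 0.0408), trended moderation (0.0475) and without frontonasal pool 2. The other 14 of its 18 alternatives did not call it.

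The sign turned in 15 fits, none of them of a called difference. For NOTCH1 between jaw prominences it was -0.01 unscaled, -0.01 with quantile normalization, and -0.12, -0.01 and -0.04 without mandibular pool 1, maxillary pool 1 and maxillary pool 3. Against the frontonasal mass NOTCH1 was -0.05 without mandibular pool 1, and -0.09 in both comparisons without frontonasal pool 2. The fitted JAG1 differences, of signals below background throughout, are no folds and gave 0.15, 0.02 and 0.02 for mandibular and -0.10 and -0.01 for maxillary minus frontonasal, and 0.09 between jaw prominences. Over all fits without 1 array, JAG1 ran from -0.22 to 0.15, from -0.10 to 0.18 and from -0.28 to 0.09 in these 3 comparisons, and NOTCH1 from -0.09 to 0.21, from -0.09 to 0.20 and from -0.12 to 0.07. DLL1 gave 0.02 between jaw prominences without mandibular pool 3. The cause of these changes was not tested. Under both filters on dim probe sets JAG1 gave no value.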
